A study of Mus musculus with 14 samples.

Results

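The 10 transcripts described here are ones that kidney tubules are known to raise after injury, namely *Havcr1*, *Lcn2*, *Vcam1*, *Sox9*, *Spp1*, *Clu*, *Cd44*, *Cd24a*, *Prom1*, and *Anxa1*. They were followed through the kidney transcriptomes of 14 male mice, were found by gene symbol in the deposited values of every mouse and are 10 of the 21878 genes listed. All 10 passed the filter on low values that left 14912 genes for testing. Diabetes was induced in 4 WT and 4 *Cfb*-/- mice, and 3 of each genotype served as controls, all of the C57BL/6J strain and age-matched. *Cfb* encodes complement factor B, a protease of the alternative pathway, and the *Cfb*-/- mice lacked it throughout the body. Diabetic mice were fed a high-fat diet with 60% of calories from fat for 4 weeks and were then injected with streptozotocin, a toxin of pancreatic β cells, at 60 mg/kg on 5 days. Control mice ate chow with 10% of calories from fat and were injected with citrate buffer. By the methods of the study, all mice were killed several months after the injections. Diet and toxin were given to the same mice, so their separate parts in any difference cannot be told apart. The labels state 34 weeks as the time but no starting point for it, call the deletion a knockdown, and give control mice the treatment text of the diabetic mice, so the groups were read from the sample titles.

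When the proximal tubule is injured, surviving cells lose transporters, take up a less differentiated state, and switch on a set of surface, secreted, and regulatory proteins. Many of these cells recover, while others stay in a proinflammatory and profibrotic state called failed repair, of which *Vcam1* is a usual marker. *Havcr1* (kidney injury molecule 1) and *Lcn2* (NGAL) are known as urinary markers of acute tubular injury. *Sox9*, *Cd24a*, and *Prom1* (CD133) are linked to tubular regeneration, and *Spp1*, *Clu*, *Cd44*, and *Anxa1* are raised in injured or remodeling epithelium and also occur in other cell types.

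The expression values are FPKM, fragment counts scaled for transcript length and for the sequencing yield of the library, a level per length that can be compared between genes. The number of reads behind them is unknown. *Cfb* itself followed the titles, at 62.2 to 131 FPKM in WT control and 56.7 to 81.9 FPKM in WT diabetic mice, against 2.05 to 2.22 and 1.13 to 1.43 FPKM in the *Cfb*-/- control and diabetic mice. The most abundant gene took 10.2 to 13.9% of all FPKM in control mice and 2.49 to 4.60% in diabetic mice. FPKM are shares of a whole, and with the deposited scaling all tested genes together had a median log2 change with diabetes of 0.29 in WT mice, against 0.22 in those without *Cfb*. Median-ratio scaling moved these medians to 0.03 and -0.01. The share of called genes that were higher fell with it from 78.4 to 50.2% in WT and from 81 to 56.7% in *Cfb*-/- mice. Markers of urothelium, the lining of the renal pelvis and ureter, set 5 mice apart, namely WT diabetic mice 2, 3, and 4 and *Cfb*-/- control mice 1 and 3, and results that rest on these mice are given with and without them. Whole tissue was sequenced, so more cells of a kind cannot be told apart from more RNA per cell.

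All 10 transcripts rose with diabetes, in WT and in *Cfb*-/- mice alike, and in none did a diabetic mouse fall within the range of the controls of its genotype. In WT mice 10 of 10 passed the adjusted threshold and were higher, beside a background of 36.2% of all tested genes. In *Cfb*-/- mice it was again 10 of 10, beside 27.4%. The 10 were chosen with earlier results of these data known, so these counts describe them and are no independent test. At the criteria of the study, which ask for a fold change over 2 or under 0.5 together with an unadjusted P under 0.05, 10 of 10 were higher in either genotype, beside 15.6% and 13.3% of genes. That count was 9 in WT mice under median-ratio scaling and quantile normalization, where *Prom1* was at a log2 fold change of 0.90 and 0.92, and 9 in *Cfb*-/- mice under median-ratio scaling, where *Cd24a* was at 0.86. Groups that did not overlap, with diabetic mice higher, were seen for 35.5% of genes in WT and 33.6% in *Cfb*-/- mice. For the 10 transcripts the median log2 fold change was 2.24 in WT and 2.44 in *Cfb*-/- mice. Adjusted p values come from limma on log2(FPKM + 0.1) with Benjamini-Hochberg adjustment over all 14912 genes, and fold changes are on that scale. By an exact two-sided permutation test each transcript reached 0.0571 in both genotypes, the smallest p that 4 mice against 3 allow.

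**Figure D1:**
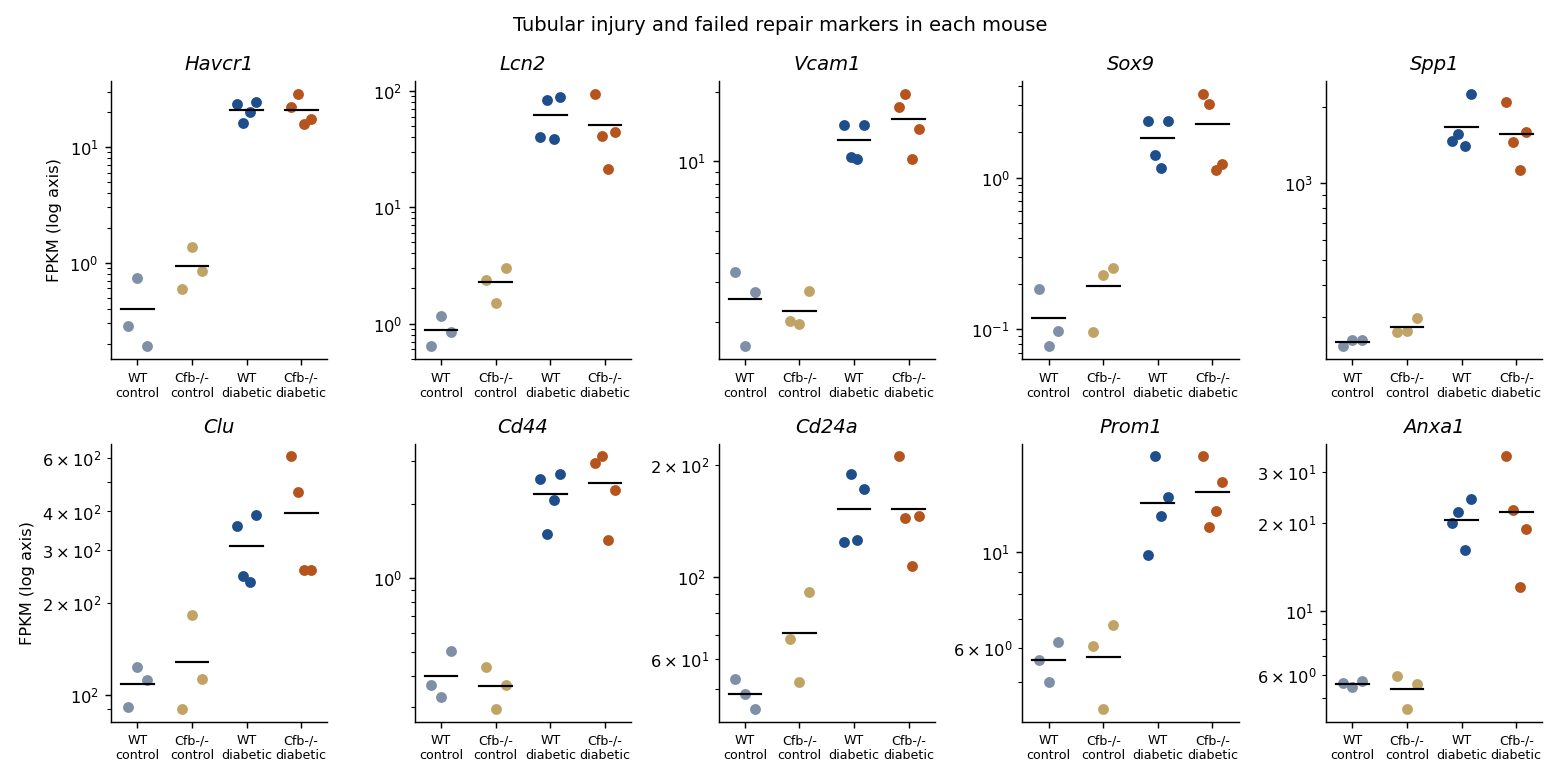
FPKM of each of the 10 transcripts (vertical log axis, a separate range for each) in every mouse by group, with a horizontal line at the group mean. Each point is a mouse. In every panel the diabetic mice of a genotype lie above its controls, while the 2 diabetic groups overlap.

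*Lcn2*, which encodes a secreted carrier of bacterial iron chelators, had the largest change in WT mice. In WT control mice it was at 0.636, 1.17, and 0.838 FPKM, and in WT diabetic mice at 39.7, 82.6, 38.8, and 88.2 FPKM. The level in *Cfb*-/- mice was 2.35, 1.51, and 2.98 FPKM in controls and 94.5, 40.9, 21.3, and 44.7 FPKM in diabetic mice. Diabetic groups spread widely, with the highest mouse at 2.27 times the lowest in WT and 4.44 times in *Cfb*-/- mice. Its log2 fold change with diabetes was 5.92 ± 0.43 (SE) in WT mice, a 60.7-fold difference with a 95% confidence interval of 32.2 to 114 (limma adjusted p = 7.31e-07). In *Cfb*-/- mice it was 4.26 ± 0.43 (SE), a 19.1-fold difference with an interval of 10.2 to 36.0 (limma adjusted p = 9.29e-06). Among the 14912 genes, ordered by fold change, *Lcn2* was number 5 in WT and number 10 in *Cfb*-/- mice.

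*Spp1*, which encodes the secreted matrix protein osteopontin, was the most abundant of the 10 per length. Control levels were tight, at 229, 242, and 243 FPKM in WT and 262, 264, and 296 FPKM in *Cfb*-/- mice. Diabetic levels were 1462, 1566, 1406, and 2250 FPKM in WT and 2091, 1450, 1132, and 1586 FPKM in *Cfb*-/- mice. The lowest diabetic mouse, at 1132 FPKM, was thus far above the highest control, at 296 FPKM. On the log2 scale *Spp1* rose by 2.78 ± 0.19 (SE) in WT (limma adjusted p = 5.47e-07) and 2.48 ± 0.19 (SE) in *Cfb*-/- mice (limma adjusted p = 2e-06), which is 6.89-fold and 5.58-fold.

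*Clu*, which encodes clusterin, a secreted chaperone, was also abundant in controls, at 91.3, 124, and 112 FPKM in WT and 90.2, 183, and 113 FPKM in *Cfb*-/- mice. It reached 359.8, 246, 235, and 390.2 FPKM in WT diabetic mice and 606, 462, 257, and 258 FPKM in *Cfb*-/- diabetic mice. The distance between groups was smaller than for *Lcn2* or *Spp1*, and *Cfb*-/- diabetic mice fell into a higher and a lower pair. With diabetes *Clu* rose on the log2 scale by 1.47 ± 0.31 (SE) in WT (limma adjusted p = 0.0018) and 1.58 ± 0.31 (SE) in *Cfb*-/- mice (limma adjusted p = 0.00129).

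*Anxa1* encodes annexin A1, a phospholipid-binding protein that acts on formyl peptide receptors. Control mice held it nearly level, at 5.64, 5.48, and 5.73 FPKM in WT and 5.98, 4.59, and 5.61 FPKM in *Cfb*-/- mice. In diabetic mice it was at 20.1, 21.8, 16.2, and 24.2 FPKM in WT and at 34.0, 22.2, 12.1, and 19.1 FPKM in *Cfb*-/- mice. The groups stayed apart although the *Cfb*-/- diabetic mice differed by 2.80 times among themselves. Log2 fold changes were 1.84 ± 0.25 (SE) in WT (limma adjusted p = 7e-05) and 1.91 ± 0.25 (SE) in *Cfb*-/- mice (limma adjusted p = 5.84e-05).

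To show what lies before these genes, the 250 bases before the listed RefSeq start (GRCm38.p6, most upstream start, 5′ to 3′ on the strand of the gene) are printed for the transcript with the largest change, for the most abundant, and for the one whose window held the most of the motifs searched. RefSeq listed such a window for 6 of the 10 genes, *Havcr1*, *Lcn2*, *Spp1*, *Cd44*, *Prom1*, and *Anxa1*. For *Havcr1* and *Prom1* the window lies wholly inside the span listed for the gene, so it is not sequence upstream of the whole gene. Capitals mark letters that matched a motif.
Lcn2, chr2:32387740-32387989, minus strand: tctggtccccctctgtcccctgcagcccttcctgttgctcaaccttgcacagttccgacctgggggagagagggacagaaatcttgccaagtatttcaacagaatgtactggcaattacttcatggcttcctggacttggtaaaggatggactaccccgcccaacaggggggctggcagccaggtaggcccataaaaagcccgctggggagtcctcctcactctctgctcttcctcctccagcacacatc
Spp1, chr5:104434861-104435110, plus strand: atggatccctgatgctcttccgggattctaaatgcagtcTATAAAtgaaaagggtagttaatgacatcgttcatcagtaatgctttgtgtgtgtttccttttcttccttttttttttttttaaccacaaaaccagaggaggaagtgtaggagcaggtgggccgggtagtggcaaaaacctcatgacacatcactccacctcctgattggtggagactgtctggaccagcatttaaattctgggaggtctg
Anxa1, chr19:20390672-20390921, minus strand: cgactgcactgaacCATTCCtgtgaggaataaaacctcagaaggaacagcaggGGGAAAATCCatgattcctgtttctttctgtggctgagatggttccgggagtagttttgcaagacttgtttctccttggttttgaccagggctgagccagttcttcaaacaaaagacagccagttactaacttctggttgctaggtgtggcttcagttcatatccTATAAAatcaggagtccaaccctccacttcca

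The 5 motifs, picked after the results were known, were NF-κB (a pattern of 10 letters with 4 left free, met in the *Anxa1* window by the longest run of capitals), AP-1 (TGANTCA), STAT (TTCNNNGAA), TEAD (GGAATG), and the TATA box with the letters TATAAA, searched on both strands. No match of one motif overlapped a match of another in these 6 windows. *Anxa1* held the NF-κB letters at -197 to -188 from the start, the TEAD letters on the other strand at -236 to -231, and TATAAA at -32 to -27. *Spp1* held TATAAA at -211 to -206, *Prom1* held the AP-1 letters at -88 to -82, and the windows of *Lcn2*, *Havcr1*, and *Cd44* held none of the 5. The NF-κB, AP-1, and TEAD letters were thus each in 1 of 6 windows, TATAAA in 2 of 6, and STAT in 0 of 6. Over all 27025 promoter windows of this length, the shares were 17.4% for NF-κB, 6.85% for AP-1, 12.6% for TEAD, 13.0% for the TATA box, and 7.14% for STAT. These are matches of letters only, and the windows tell nothing of binding in these kidneys.

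*Havcr1* encodes kidney injury molecule 1, a surface receptor with which tubule cells take up apoptotic debris. In controls it was barely measured, at 0.281, 0.731, and 0.189 FPKM in WT and 0.596, 1.37, and 0.847 FPKM in *Cfb*-/- mice. In diabetic mice it stood at 23.4, 16.2, 19.9, and 24.4 FPKM in WT and 22.1, 28.9, 15.7, and 17.4 FPKM in *Cfb*-/- mice. The diabetic groups had the same mean of 21.0 FPKM, so the smaller fold change in *Cfb*-/- mice went with the higher control level. On the log2 scale *Havcr1* rose by 5.53 ± 0.33 (SE) in WT (limma adjusted p = 1.28e-07) and 4.37 ± 0.33 (SE) in *Cfb*-/- mice (limma adjusted p = 1.61e-06), 46.2-fold and 20.7-fold. By fold change it was number 7 of 14912 genes in WT and number 9 in *Cfb*-/- mice.

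*Vcam1*, an adhesion receptor for integrin α4β1, was at 3.31, 1.57, and 2.71 FPKM in WT control mice and 2.02, 1.97, and 2.74 FPKM in *Cfb*-/- control mice. It was at 14.4, 10.5, 10.2, and 14.4 FPKM in WT diabetic mice and 17.3, 19.7, 10.2, and 13.9 FPKM in *Cfb*-/- diabetic mice. The lowest diabetic mouse of either genotype was well above the highest control. Its log2 fold change was 2.29 ± 0.25 (SE) in WT (limma adjusted p = 1.87e-05) and 2.68 ± 0.25 (SE) in *Cfb*-/- mice (limma adjusted p = 6.47e-06).

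*Cd44*, the main hyaluronan receptor, had low levels throughout, between 0.294 and 0.505 FPKM in control mice. WT diabetic mice had 2.54, 1.51, 2.08, and 2.65 FPKM, and *Cfb*-/- diabetic mice had 2.94, 3.13, 1.43, and 2.28 FPKM. All diabetic mice lay above all controls, and the log2 fold change was 2.18 ± 0.26 (SE) in WT (limma adjusted p = 3.22e-05) and 2.41 ± 0.26 (SE) in *Cfb*-/- mice (limma adjusted p = 1.82e-05).

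*Cd24a*, a small glycosylated surface protein, was at 53.3, 48.3, and 44.1 FPKM in WT control and 68.2, 52.1, and 91.2 FPKM in *Cfb*-/- control mice. Diabetic mice had 124, 189, 126, and 172 FPKM in WT and 211, 144, 107, and 146 FPKM in *Cfb*-/- mice. With the higher *Cfb*-/- controls the groups of that genotype came close, at 91.2 and 107 FPKM. On the log2 scale *Cd24a* rose by 1.63 ± 0.22 (SE) in WT (limma adjusted p = 8.39e-05) and 1.10 ± 0.22 (SE) in *Cfb*-/- mice (limma adjusted p = 0.00178). Processed copies of *Cd24a* lie elsewhere in the mouse genome, and how reads shared with them were counted is not given in the sources used here.

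*Prom1*, a pentaspan protein of membrane protrusions, had the smallest change of the 10 in WT mice. It was at 5.64, 5.02, and 6.20 FPKM in WT control and 6.08, 4.34, and 6.79 FPKM in *Cfb*-/- control mice. Diabetic mice had 9.86, 16.6, 12.1, and 13.4 FPKM in WT and 16.6, 11.4, 12.4, and 14.5 FPKM in *Cfb*-/- mice. Its rise on the log2 scale was 1.18 ± 0.19 (SE) in WT (limma adjusted p = 0.00024) and 1.25 ± 0.19 (SE) in *Cfb*-/- mice (limma adjusted p = 0.000171).

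*Sox9*, a transcription factor that injured tubule cells switch on during regeneration, was the least abundant. Control mice had 0.184, 0.0772, and 0.0968 FPKM in WT and 0.0954, 0.229, and 0.255 FPKM in *Cfb*-/- mice, close to the pseudocount of 0.1, so the fold change is understated. Diabetic mice had 2.36, 1.41, 1.16, and 2.35 FPKM in WT and 3.58, 3.04, 1.13, and 1.23 FPKM in *Cfb*-/- mice. Even the lowest diabetic mouse was thus several times above the highest control. *Sox9* rose on the log2 scale by 3.10 ± 0.40 (SE) in WT (limma adjusted p = 5.06e-05) and 2.88 ± 0.40 (SE) in *Cfb*-/- mice (limma adjusted p = 9.61e-05). With a pseudocount of 1 these became 1.31 and 1.36, past the adjusted threshold as before.

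**Figure D2:**
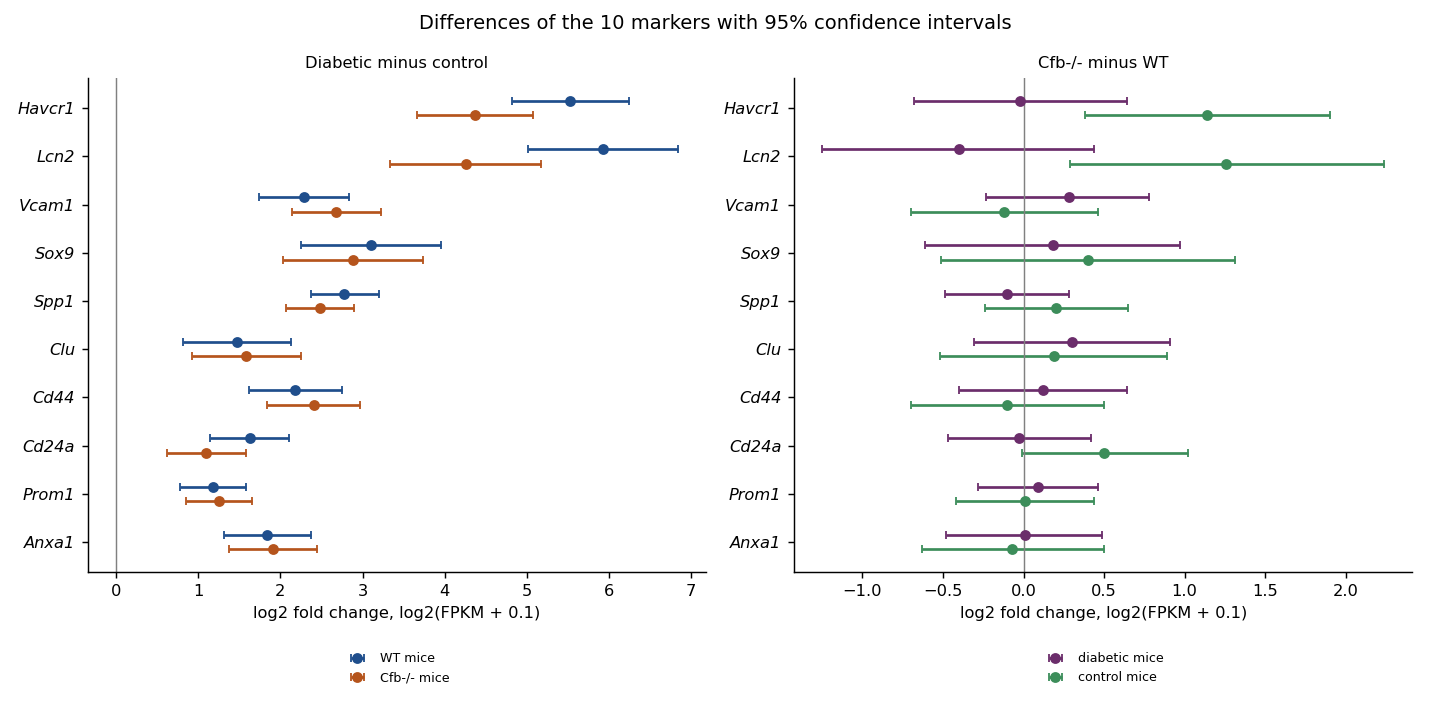
Log2 fold changes of the 10 transcripts with 95% confidence intervals, diabetic minus control in WT and *Cfb*-/- mice (left) and *Cfb*-/- minus WT in diabetic and control mice (right). On the left every interval lies above 0, from 1.10 for *Cd24a* in *Cfb*-/- mice to 5.92 for *Lcn2* in WT mice. On the right the intervals of diabetic mice all include 0, and those of *Havcr1* and *Lcn2* in control mice do not.

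None of the 10 transcripts differed between *Cfb*-/- diabetic and WT diabetic mice beyond the spread between mice. This comparison asks whether the deletion went with less tubular injury at the transcript level. By limma 0 of 10 passed the adjusted threshold, beside 0% of genes higher and 0.00671% lower, 0 met the criteria of the study, beside 0.0738% higher and 0.402% lower, and 0 had an unadjusted p under 0.05, beside 1.33% of genes higher and 1.67% lower. The study used a count-based test, which could not be run here, and reported more genes in both directions at these criteria in this comparison. All 10 overlapped between the groups, while 1.86% of genes lay apart with *Cfb*-/- mice higher and 0.885% with them lower. Exact two-sided permutation p values ran from 0.4 to 0.971, where 4 mice against 4 can reach 0.0286.

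The sizes of these differences follow with their intervals. *Lcn2* had a mean ± SD of 50.4 ± 31.2 FPKM in *Cfb*-/- diabetic mice (n = 4) and 62.3 ± 26.7 FPKM in WT diabetic mice (n = 4), a log2 fold change of -0.40 with a 95% confidence interval from -1.25 to 0.44. *Clu*, at 396 ± 170.1 FPKM against 308 ± 78.9 FPKM, had the largest positive value, 0.30 with an interval from -0.31 to 0.91. *Vcam1* was at 15.2 ± 4.14 FPKM against 12.4 ± 2.35 FPKM, 0.28 with an interval from -0.23 to 0.78. *Havcr1*, at 21.0 ± 5.90 FPKM against 21.0 ± 3.69 FPKM, gave -0.02 with an interval from -0.68 to 0.64. *Spp1* gave -0.10 (-0.49 to 0.28), *Cd24a* -0.03 (-0.47 to 0.42), *Prom1* 0.09 (-0.28 to 0.46), *Anxa1* 0.01 (-0.48 to 0.49), *Cd44* 0.12 (-0.40 to 0.64), and *Sox9* 0.18 (-0.61 to 0.97). A level 0.5 times that of WT diabetic mice lay inside the interval of *Lcn2*, which reached down to 0.422 times, and outside those of the other 9, whose lower bounds were 0.626 times or more. With the urothelium score as covariate *Lcn2* gave 0.01, and without the 5 mice set apart by that score it gave 0.14. The fit without them keeps 1 WT diabetic mouse, mouse 1, with *Lcn2* at 39.7 FPKM. WT diabetic mouse 3, left out with the highest score of 2.37, had a similar level of 38.8 FPKM. Dropping any single mouse kept the *Lcn2* value negative, from -0.77 to -0.05. Whether the mice of high score set its sign thus cannot be told from that fit. *Prom1* gave 0.39 with the covariate, which did not pass the adjusted threshold, and 0.46 in the fit without the 5 mice.

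Among control mice, 2 of the 10 transcripts, *Havcr1* and *Lcn2*, were higher in *Cfb*-/- mice at the criteria of the study, beside 0.946% of genes higher and 0.221% lower, and 0 of 10 passed the adjusted threshold by limma, beside 0% higher and 0.00671% lower. At an unadjusted p under 0.05 it was the same 2, beside 9.86% of genes higher and 7.67% lower. *Lcn2* was at 2.28 ± 0.741 FPKM (SD, n = 3) against 0.880 ± 0.268 FPKM (SD, n = 3), and the groups did not overlap. Its log2 fold change was 1.26 with an interval from 0.29 to 2.24 (limma adjusted p = 0.249), and its exact permutation p was 0.1, the smallest that 3 mice against 3 allow. *Havcr1* was at 0.940 ± 0.397 FPKM (SD, n = 3) against 0.400 ± 0.290 FPKM (SD, n = 3) with overlapping groups, a log2 fold change of 1.14 with an interval from 0.38 to 1.90 (limma adjusted p = 0.244, exact permutation p = 0.2). *Spp1* did not overlap either, where 6.67% of genes lay apart with *Cfb*-/- mice higher and 7.12% with them lower, with a log2 fold change of 0.20 (-0.24 to 0.65). The *Cd24a* value was 0.50 (-0.01 to 1.02), and the other 6 lay between -0.12 and 0.40. With a pseudocount of 1, neither *Havcr1* nor *Lcn2* met the criteria of the study.

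The same 2 transcripts had the rise with diabetes that was numerically smaller in *Cfb*-/- mice by the most, while 5 of the 10 rose numerically more there. The interaction of genotype and diabetes, the log2 fold change with diabetes in *Cfb*-/- mice minus that in WT mice, was -1.67 for *Lcn2* (95% confidence interval -2.96 to -0.38, limma adjusted p = 0.779). For *Havcr1* it was -1.16 (-2.16 to -0.15, limma adjusted p = 0.779). When genotype was permuted exactly, separately among diabetic and among control mice (1400 assignments), p was 0.0486 for *Lcn2* and 0.15 for *Havcr1*. Applied to the interaction, the criteria of the study were met by these 2 of 10, beside 1.31% of genes lower in this way, and 0 of 10 passed the adjusted threshold, beside 0% of genes in either direction. At an unadjusted p under 0.05 it was again 2 of 10, both lower, beside 2.92% of genes lower and 2.86% higher. The other 8 interactions lay between -0.53 for *Cd24a* and 0.40 for *Vcam1*, and their intervals included 0.

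Among the *Cfb*-/- control mice, the higher *Lcn2* levels went with higher urothelium markers. Of the *Cfb*-/- control mice, mice 1 and 3 had urothelium scores of 0.13 and 0.32 and *Lcn2* at 2.35 and 2.98 FPKM, while mouse 2 had a score of -2.57 and *Lcn2* at 1.51 FPKM. The score is the mean log2(FPKM + 0.1) of 8 genes, uroplakins and basal keratins, and was -3.01 to -2.26 in WT control mice. The WT diabetic mice did not follow this order, since mouse 3 had the highest score, 2.37, and the lowest *Lcn2* of its group, 38.8 FPKM. Over the deviations of all 14 mice from their group means, Pearson r of *Lcn2* was 0.38 with the urothelium score, 0.61 with macrophage, and 0.75 with collecting duct markers. *Havcr1* ran the other way in the *Cfb*-/- controls, with its highest control value of 1.37 FPKM in mouse 2. With the score as covariate the interaction was -0.91 for *Lcn2* and -1.64 for *Havcr1*. Without the 5 mice, a choice made after the data were seen, the control difference was 0.75 for *Lcn2* and 1.71 for *Havcr1*, and the interaction -0.61 and -1.90. That fit keeps 1 WT diabetic and 1 *Cfb*-/- control mouse, which were assumed to vary like the others. The part of these cells in the *Lcn2* difference was not tested.

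**Figure D3:**
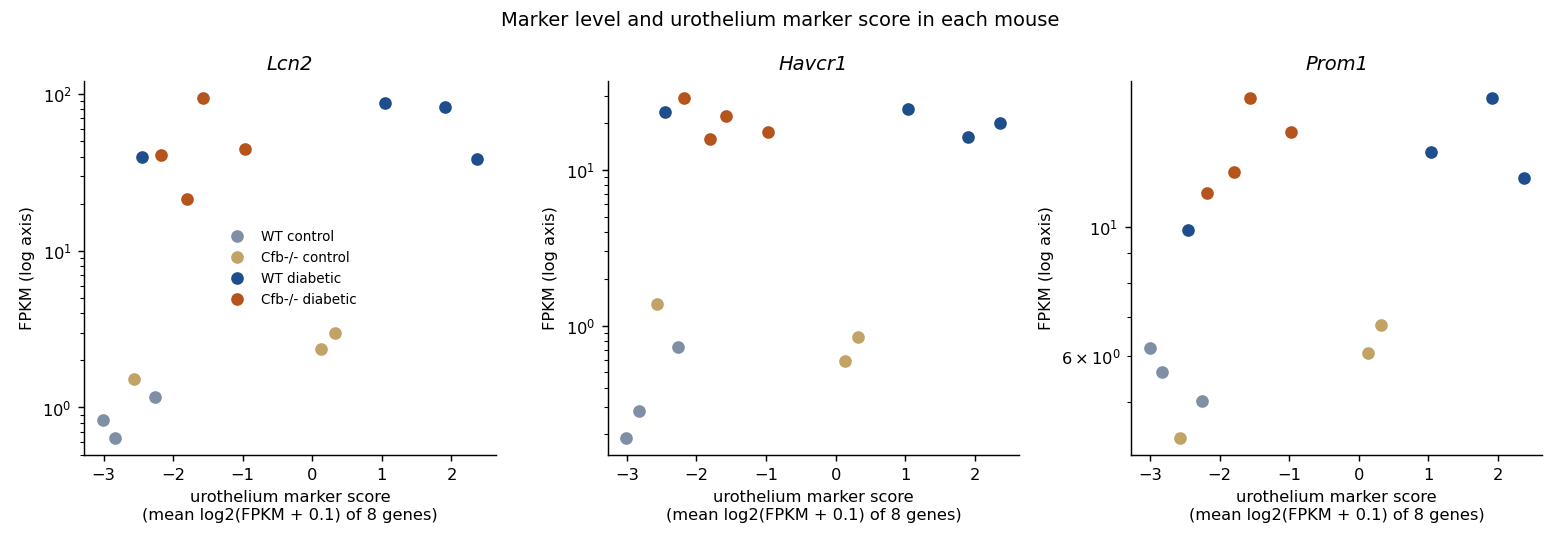
FPKM of *Lcn2*, *Havcr1*, and *Prom1* (vertical log axes) against the urothelium marker score, the mean log2(FPKM + 0.1) of 8 genes, in each of the 14 mice, colored by group. WT diabetic mice 2, 3, and 4 and *Cfb*-/- control mice 1 and 3 lie above 0 on the horizontal axis.

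The rise with diabetes was also checked against these mice. Urothelium markers were higher in WT diabetic than in WT control mice for 8 of 8 genes by limma, beside 36.2% of all genes. In *Cfb*-/- mice 0 of 8 of these markers were higher, beside 27.4%. Their summed level was 0.304 to 1.02 FPKM in WT control, 1.01 to 54.4 FPKM in WT diabetic, 0.732 to 11.7 FPKM in *Cfb*-/- control, and 1.60 to 4.41 FPKM in *Cfb*-/- diabetic mice. Without the 5 mice the fit keeps 1 WT diabetic and 1 *Cfb*-/- control mouse. In it the log2 fold changes of the 10 transcripts with diabetes were again above 0 in both genotypes, though not all passed the adjusted threshold. The smallest log2 fold changes were 0.81 for *Prom1* in WT mice and 1.01 for *Clu* in *Cfb*-/- mice. *Lcn2* and *Havcr1* were higher in both genotypes under every alternative run, by at least 3.80 and 3.49 on the log2 scale.

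Immune and stromal markers rose with the 10 transcripts, and their counts stand beside the 36.2% of all genes higher in WT and 27.4% in *Cfb*-/- mice. The marker lists too were chosen with earlier results of these data known. Of 9 macrophage markers, 9 were higher in WT diabetic and 8 in *Cfb*-/- diabetic mice by limma, and their summed level was 57.1 to 89.2 FPKM in control mice of either genotype and 227 to 415 FPKM in diabetic mice. Of 6 fibroblast markers, 6 were higher in both genotypes, with sums of 21.7 to 36.1 FPKM in controls and 61.2 to 113 FPKM in diabetic mice. T cell markers were higher for 7 of 8 in both genotypes, at sums of 2.54 to 5.60 and 4.41 to 12.0 FPKM. B cell markers were higher for 4 of 5 tested in WT and 2 of 5 in *Cfb*-/- mice, at sums of 1.08 to 2.02 and 1.77 to 7.38 FPKM. Under median-ratio scaling 8 macrophage markers were higher in each genotype, and 5 fibroblast markers in WT and 6 in *Cfb*-/- mice. T cell markers then numbered 3 and 6, and B cell markers 4 and 1, beside 22.7% and 18.5% of all genes. Quantile normalization gave 8 and 7 macrophage, 4 and 4 fibroblast, 2 and 1 T cell, and 0 and 1 B cell markers. The background was then 15.9% and 14.4%, and 1 T cell marker was lower in WT mice. *Lcn2*, *Spp1*, *Cd44*, and *Anxa1* are also made by leukocytes, and the part of such cells in these levels was not tested. Neutrophils store much NGAL protein. Their markers were higher for 1 of 5 tested in WT and 2 of 5 in *Cfb*-/- mice, where 1 was lower, and they summed to 2.18 to 8.21 FPKM in controls and 1.60 to 6.43 FPKM in diabetic mice, with *Ly6g* and *Mpo* listed at 0 in all control mice. Of 5 adipocyte markers tested, 5 were higher in WT diabetic mice and 0 in *Cfb*-/- diabetic mice, with sums of 7.11 to 31.1 and 0.102 to 0.386 FPKM. Without the 5 mice set apart by urothelium markers, 7 of 9 macrophage markers were higher in each genotype, 4 and 6 of 6 fibroblast markers, and 3 of 8 T cell markers in each, beside 10.6% of genes in WT and 14.6% in *Cfb*-/- mice.

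Endothelial markers were higher for 4 of 7 in WT and 5 of 7 in *Cfb*-/- mice, and podocyte markers for 2 of 4 and 4 of 4, again beside 36.2% and 27.4% of all genes. Among markers of other nephron segments, 2 of 4 for the thick ascending limb, 0 of 3 for the distal convoluted tubule, 3 of 10 for the collecting duct, and 3 of 5 for the inner medulla and thin limb were higher in WT mice. In *Cfb*-/- mice these counts were 1, 0, 0, and 0. Under median-ratio scaling 2 of 7 endothelial markers were higher in each genotype, and 0 of 4 podocyte markers in WT and 4 in *Cfb*-/- mice. The segment counts in WT mice were then 1, 0, 0, and 3, beside 22.7% of all genes. Quantile normalization gave 3 endothelial markers in each genotype and 1 and 3 podocyte markers. It gave segment counts of 3, 0, 2, and 2 in WT mice, beside 15.9% of all genes. The inner medulla and thin limb score, a mean log2 level, was 4.83 and 4.62 in WT diabetic mice 2 and 3, 2.87 in mouse 4, and 1.59 in mouse 1, against 0.65 to 2.47 in WT control mice. Without the 5 mice 0 of 5 of these markers, 0 of 10 collecting duct markers, and 1 of 4 thick ascending limb markers were higher in WT mice, and of endothelial and podocyte markers 2 of 7 and 0 of 4 in either genotype. *Cldn10* of the thick ascending limb was lower in both genotypes, at -0.69 and -0.86 on the log2 scale, and *Slc26a4* of the collecting duct in WT mice, at -0.92. Kidney identity itself was plain, with *Kap*, a proximal tubule transcript, or *Gpx3* the most abundant gene in every mouse.

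Genes of related lists moved with the 10 transcripts. These lists were chosen with earlier results of these data known, so their counts are descriptions and no independent test. Of 17 tested genes of the acute tubular injury response, 14 were higher and 0 lower in each genotype, beside 36.2% of all genes higher in WT and 27.4% in *Cfb*-/- mice. Their median log2 fold change was 1.58 in WT and 1.76 in *Cfb*-/- mice, beside 0.29 and 0.22 for all genes. *Krt20*, a keratin of injured tubule, rose from 0.0445 ± 0.0207 to 3.84 ± 0.179 FPKM in WT mice and from 0.0877 ± 0.0204 to 3.37 ± 1.25 FPKM in *Cfb*-/- mice (SD), a log2 fold change of 4.78 and 4.14. *Cdkn1a*, the cell cycle inhibitor p21, rose from 4.34 ± 1.97 to 85.4 ± 13.3 FPKM and from 4.72 ± 1.10 to 102 ± 22.1 FPKM, a log2 fold change of 4.34 and 4.40. *Cxcl1*, a neutrophil chemokine, changed by 4.38 and 3.64. Their limma adjusted p values were 4.31e-05 or lower, and *Hbegf*, at 0.15 and 0.07, was among those that did not pass.

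Of 16 genes of failed repair proximal tubule, 14 were higher in WT and 13 in *Cfb*-/- mice, and 0 were lower, with medians of 1.22 and 1.36 and the same background. *C3*, the central complement component, rose from 1.95 ± 0.282 to 38.5 ± 4.95 FPKM in WT and from 2.39 ± 0.629 to 33.5 ± 8.92 FPKM in *Cfb*-/- mice, a log2 fold change of 4.23 and 3.75 (limma adjusted p = 1.37e-08 and 7.47e-08). *Ccl2*, a monocyte chemokine, changed by 2.67 and 3.42, and *Cp*, the copper carrier ceruloplasmin, by 2.39 and 2.29. Developmental and progenitor-associated tubule genes were higher for 10 of 13 in WT and 9 of 13 in *Cfb*-/- mice, with 0 lower, beside 36.2% and 27.4% of all genes, and had medians of 1.25 and 1.26. Among them *Krt19* rose by 5.14 and 2.20, *Aldh1a1* by 3.23 and 2.64, and the transcription factor *Sox4* by 2.69 and 1.86 on the log2 scale. *Krt19* is also a keratin of urothelium and was uneven in *Cfb*-/- control mice, at 2.06 ± 1.45 FPKM against 0.235 ± 0.0323 FPKM in WT controls.

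Partners of the 10 proteins, their receptors, ligands, and sheddases, were higher for 15 of 20 tested genes in WT and 13 of 20 in *Cfb*-/- mice, beside 36.2% and 27.4% of all genes, with medians of 0.89 and 0.80. *Itga4*, which encodes the α4 chain of the *Vcam1* receptor, changed by 1.52 and 1.45, and *Fpr2*, a receptor for annexin A1 of a family with near-identical copies, by 2.02 and 1.54. *Mmp14*, a membrane metalloprotease that cleaves CD44, changed by 1.89 and 2.52. In WT mice 1 gene was lower, *Slc22a17*, which encodes a receptor for NGAL, from 12.2 ± 1.91 to 8.41 ± 2.09 FPKM (log2 fold change -0.55, limma adjusted p = 0.0408), and its value in *Cfb*-/- mice was -0.04. In *Cfb*-/- mice 2 were lower, *Lrp2* (megalin) at -0.83 and *Vldlr* at -0.56, named here after their values were seen. The calls of *Fpr2* and *Slc22a17* were lost under some alternatives.

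Genes of proximal tubule differentiation went down. Of 22 tested, *Lrp2* among them, 13 were lower in WT and 15 in *Cfb*-/- mice, beside 9.97% and 6.40% of all tested genes, and 0 were higher. The median was -0.72 in WT and -0.91 in *Cfb*-/- mice. *Slc5a2*, the glucose transporter SGLT2, fell from 259.7 ± 47.3 to 34.6 ± 13.8 FPKM in WT and from 157 ± 25.3 to 49.6 ± 34.4 FPKM in *Cfb*-/- mice, a log2 fold change of -2.99 and -2.00 (limma adjusted p = 0.000385 and 0.00713). *Cyp4b1*, a cytochrome P450 of male mouse kidney, gave -2.61 and -2.44, and *Slc5a12*, a lactate transporter, -2.36 and -1.84.

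These counts depended on the scaling, as did the background. Under median-ratio scaling the lower genes of proximal tubule differentiation numbered 15 in WT and 17 in *Cfb*-/- mice, beside 22.5% and 14.1% of all genes lower, and under quantile normalization 10 and 14, beside 20.1% and 14.9%. Higher genes were 22.7% of all in WT and 18.5% in *Cfb*-/- mice under median-ratio scaling, and 15.9% and 14.4% under quantile normalization. Of the injury response 13 were then higher in WT mice and 14 in *Cfb*-/- mice under either scaling, with 1 lower in WT mice under median-ratio scaling. For failed repair 12 and 12 were higher under median-ratio scaling, with 1 lower in each genotype, and 10 and 11 under quantile normalization, with 1 lower in WT mice. Developmental genes were higher for 8 and 8 under the first and 7 and 8 under the second. Partners were higher for 13 and 11, with 2 lower in each genotype, and under quantile normalization for 10 and 9, with 2 and 1 lower.

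Without the 5 mice set apart by urothelium markers, in a fit of fewer mice, 10.6% of all genes were higher and 2.21% lower in WT mice, and 14.6% and 2.09% in *Cfb*-/- mice. In that fit the lower genes of proximal tubule differentiation were 3 and 7 of 22. Higher were 12 and 10 of 17 injury response genes, with 1 lower in *Cfb*-/- mice, 9 and 10 of 16 failed repair genes, 5 and 6 of 12 developmental genes, and 8 and 8 of 20 partners. With all 14 mice, 0 genes of each of these 5 lists were called by limma between *Cfb*-/- and WT mice, diabetic or control. That was true of nearly all tested genes, of which 0% were called higher and 0.00671% lower in either comparison.

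**Figure D4:**
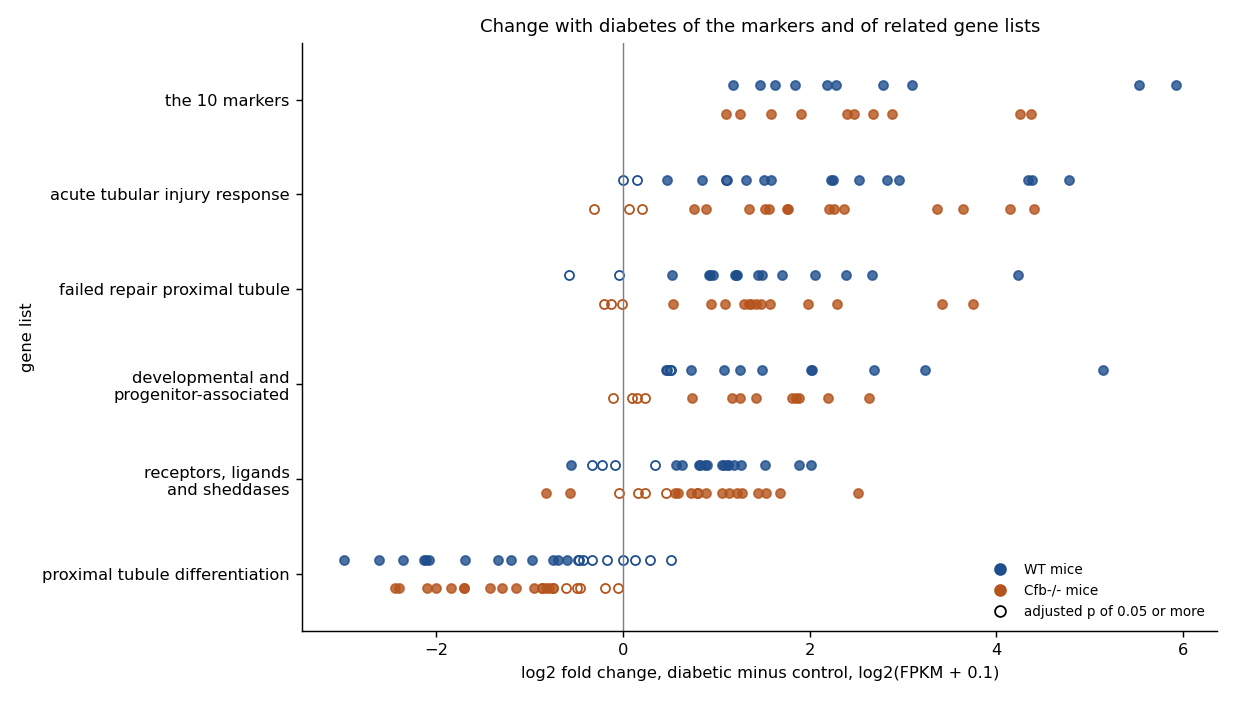
Log2 fold change with diabetes of each tested gene in the 10 transcripts and in 5 lists of related genes, in WT mice (blue) and *Cfb*-/- mice (orange). Filled points have a limma adjusted p under 0.05. The 10 transcripts lie between 1.10 and 5.92, and called genes of proximal tubule differentiation all lie below 0.

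Within the groups the transcripts did not vary independently from mouse to mouse. *Cfb*-/- diabetic mouse 1 was the highest of its group for 7 of the 10 and lay 0.53 above the group mean on the log2 scale, averaged over them. *Cfb*-/- diabetic mouse 3 was the lowest for 9 of 10, at -0.57. Among WT diabetic mice, mouse 4 was highest for 7 at 0.31, and mouse 3 was lowest for 6 at -0.27. Mouse 3 was the lower end in both diabetic groups, though no source used here states that equal numbers mark paired mice.

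**Figure D5:**
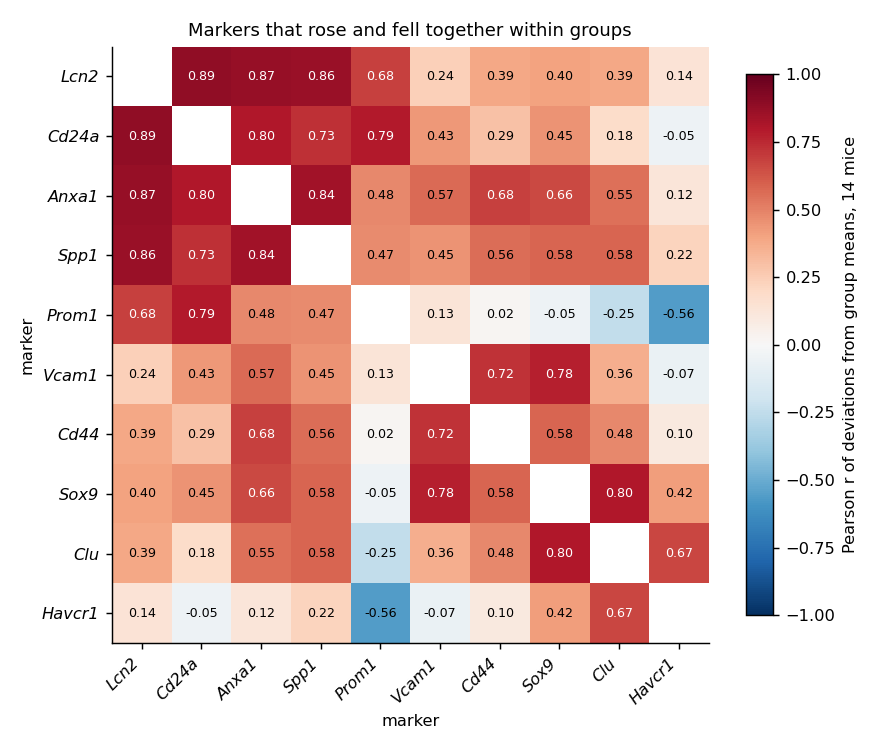
Pearson r between each pair of the 10 transcripts, computed over the deviations of 14 mice from their group means in log2(FPKM + 0.1), from -1 (blue) to 1 (red), with genes ordered after the values were seen. *Lcn2*, *Cd24a*, *Anxa1*, and *Spp1* form the red block at the top left, and *Havcr1* stands apart, with an r of -0.56 to *Prom1*.

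Pearson r of these deviations over the 14 mice was above 0 for 40 of 45 pairs, with a median of 0.47. These are descriptions, since all pairs share the same libraries and their scaling. The highest value was 0.89, between *Lcn2* and *Cd24a*, and *Lcn2* also had 0.87 with *Anxa1* and 0.86 with *Spp1*. Another set was *Sox9* with *Clu* at 0.80 and with *Vcam1* at 0.78. *Havcr1* was highest with *Clu*, at 0.67, and lowest with *Prom1*, at -0.56. Against marker scores, *Sox9* had 0.86 with macrophage, *Anxa1* 0.87 with collecting duct, *Vcam1* 0.74 with fibroblast, and *Prom1* 0.70 with urothelium markers.

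Over the same 14 mice and 11381 genes with a mean log2 value of at least 0, the gene with the closest pattern within groups was *Tspan8* for *Lcn2*, with an r of 0.986. *Sox9* was closest to *Ywhah* (0.972), *Spp1* to *Wbp5* (0.969), *Cd44* to *Nfkbie* (0.967), and *Vcam1* to *Yap1* (0.965). For *Prom1* it was *Muc1* (0.959), for *Clu* *Ccdc160* (0.957), for *Anxa1* *Slc44a3* (0.935), for *Cd24a* *Efemp1* (0.933), and for *Havcr1* *Magoh* (0.911). Each r is the highest found among 11381 genes over only 14 mice. These too are descriptions, and a link between the genes was not tested.

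By mean level per length, *Spp1*, then *Clu*, then *Cd24a* were the highest and *Sox9* the lowest in all 4 groups. In WT diabetic mice *Lcn2* followed at 62.3 ± 26.7 FPKM, ahead of *Havcr1* at 21.0 ± 3.69, *Anxa1* at 20.6 ± 3.39, *Prom1* at 13.0 ± 2.83, and *Vcam1* at 12.4 ± 2.35 FPKM (SD, n = 4). *Havcr1* and *Anxa1*, *Prom1* and *Vcam1*, and *Cd44* at 2.19 ± 0.519 and *Sox9* at 1.82 ± 0.629 FPKM were neighbors that differed by less than their spread. In WT control mice *Anxa1* and *Prom1*, both at a mean of 5.62 FPKM, were ahead of *Vcam1* at 2.53 ± 0.882 and *Lcn2* at 0.880 ± 0.268 FPKM (SD, n = 3). *Havcr1* and *Cd44* shared a mean of 0.400 FPKM there, and *Sox9* was last at 0.119 ± 0.0571 FPKM. In WT mice *Lcn2* and *Havcr1* thus stood below *Vcam1* in controls and above it in diabetic mice.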

How the data were processed

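Kidney RNA of 14 mice was prepared by the authors as stranded TruSeq mRNA libraries and sequenced in pairs on an Illumina HiSeq. The submitters' processing notes name Trimmomatic, HISAT2, Cufflinks, HTSeq, DESeq, and GRCm38.p6, without roles or order. The deposited values per gene and mouse are FPKM. No label names this unit, which was inferred because the values have decimals, sum to 330246 to 488196 per mouse, and at their lowest shrink with transcript length (Spearman's rho -0.65 over 2431 low genes). The depth is therefore unknown, and a test on read counts, as the study used, could not be run.

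Values were tested with limma 3.58.1 (R 4.3.3) as log2(FPKM + 0.1), with group means and a trended prior variance and with all 14 mice fitted together. A gene was kept when 3 or more mice reached 0.1 FPKM, and p values were adjusted by Benjamini-Hochberg over all 14912 genes and counted as called under 0.05. The fit was tested on simulated data. Pairs of groups and the interaction were compared, and single genes also by exact two-sided permutation (Python 3.11.15, scipy 1.17.1). No pair of mice had identical values. Of 19 same-numbered pairs of mice, 3 had a correlation of deviations over 0.1 (range -0.39 to 0.24). Pairs of different number were not set beside them, so these values cannot settle whether equal numbers mark paired mice. No source used here states such a pairing.

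The named genes are the 10 transcripts, up to 3 rising and 3 falling genes per related list with the largest change among those called in WT mice, and the genes closest in pattern. The 10 transcripts, the related lists, and the marker lists were chosen with earlier results of these data known. The 5 sequence motifs, the setting without the mice of high urothelium score, and the counts of listed genes under other settings were chosen after values had been seen. The start from which promoter windows were counted was changed once after a first output, which changed no match in the 10 genes. Alternatives were other filters, pseudocounts, and scalings, the 2 groups alone, no trend, the replicate number as a block, the urothelium score as covariate, and leaving out each mouse. Promoter sequences and coordinates are those of RefSeq on GRCm38.p6.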

Additional observations from a re-analysis of the deposited data

Results flagged for a closer look

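Of 10 interactions of genotype and diabetes, 2 had an unadjusted limma p under 0.05, both lower, beside 2.92% of all genes lower and 2.86% higher. The rise of *Lcn2* with diabetes was smaller in *Cfb*-/- than in WT mice, with an interaction of -1.67 on the log2 scale, and so was that of *Havcr1*, with -1.16. Neither passed the adjusted threshold (limma adjusted p = 0.779 for both), and with a pseudocount of 1 the values were -1.18 for *Lcn2* and -0.49 for *Havcr1*. Diabetic mice of both genotypes had *Havcr1* at a mean of 21.0 FPKM, and control means were 0.940 FPKM in *Cfb*-/- and 0.400 FPKM in WT mice. No mouse lay far from its group for any of the 10 transcripts in the 20 groups of 4 mice tested, where chance alone would flag about 1 in 20.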

How the results depend on the processing

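The rise of the 10 transcripts with diabetes kept its direction under all alternatives. At the adjusted threshold a call was lost in 1 of 250 checks in WT and 1 of 250 in *Cfb*-/- mice, both without the mice of high urothelium score. At the criteria of the study 10 of 10 became 9 in WT mice with median-ratio scaling, quantile normalization, the urothelium covariate, and without the mice of high score (*Prom1*), and 9 in *Cfb*-/- mice with median-ratio scaling and without *Cfb*-/- diabetic mouse 1 or *Cfb*-/- control mouse 2 (*Cd24a*). For *Cfb*-/- against WT control mice the count at the criteria of the study, 2, became 0 with a pseudocount of 1, 1 with quantile normalization, 1 with the urothelium score as covariate, 1 without the mice of high urothelium score, and 1 to 2 when each mouse was left out (1 without *Cfb*-/- control mouse 2 or 3 or WT control mouse 1 or 3). The count for the interaction, 2, became 0, 1, 1, and 1 under the same settings and 1 to 2 when each mouse was left out (1 without *Cfb*-/- diabetic mouse 3, *Cfb*-/- control mouse 2, or WT control mouse 1 or 3). Its count by exact permutation, 1, became 0 with a pseudocount of 1 and 0 with quantile normalization. Exact tests were not repeated under the other settings. The replicate block changed no count of the 10 transcripts, with *Lcn2* at -1.67 and *Havcr1* at -1.16 for the interaction. Since no source used here states that equal numbers pair the mice, this block is given here only.

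Small differences changed sign. In diabetic mice, *Cfb*-/- against WT, the values became -0.05 for *Anxa1* with median-ratio scaling, 0.07 for *Cd24a* with quantile normalization, and, with the urothelium score as covariate, 0.23 for *Cd24a*, -0.10 for *Clu*, 0.01 for *Lcn2*, and -0.24 for *Sox9*. Without the mice of high score they were 0.25 for *Cd24a*, -0.11 for *Cd44*, 0.14 for *Lcn2*, -0.24 for *Sox9*, and 0.06 for *Spp1*. In control mice *Prom1* became -0.08 with median-ratio scaling, -0.07 with quantile normalization, -0.25 with the covariate, and -0.36 without the mice of high score, and *Vcam1* 0.01 with the covariate. The interaction became 0.06 for *Sox9* with a pseudocount of 1, -0.62 for *Clu* with the covariate, and -0.72 for *Clu* and 0.15 for *Cd24a* without the mice of high score. Leaving out each mouse gave, in diabetic mice, -0.24 to 0.25 for *Anxa1*, -0.20 to 0.13 for *Cd24a*, -0.04 to 0.35 for *Cd44*, -0.19 to 0.11 for *Havcr1*, -0.04 to 0.21 for *Prom1*, -0.09 to 0.43 for *Sox9*, and -0.25 to 0.05 for *Spp1*. In control mice it gave -0.14 to 0.04 for *Anxa1*, -0.21 to 0.05 for *Cd44*, -0.10 to 0.41 for *Clu*, -0.12 to 0.20 for *Prom1*, and -0.42 to 0.10 for *Vcam1*. For the interaction it gave -0.17 to 0.32 for *Anxa1*, -0.12 to 0.40 for *Clu*, -0.11 to 0.21 for *Prom1*, and -0.49 to 0.03 for *Sox9*. *Slc22a17* in *Cfb*-/- mice ranged from -0.16 to 0.05. The causes were not tested. Depth is unknown and limits *Sox9*, *Cd44*, and *Havcr1* in control mice most.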
